A study of Mus musculus with 4 samples.

Results

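The genes of the matrix metalloproteases (Mmp), of the ADAM and ADAMTS metalloproteases, and of the tissue inhibitors of metalloproteases (Timp) were followed in PyMT-A cells. PyMT-A is a line of mammary tumour cells of the FVB/NJ strain, kept in DMEM with serum; PyMT stands for the middle T oncogene of polyoma virus. Members were chosen by symbol, as Mmp, Adam or Adamts followed by a number with at most 1 letter after it, or Timp followed by 1 digit; Adam10 and Adam17 were left out. Of 33677 gene symbols with counts, 73 fitted this rule, namely 22 Mmp, 28 Adam, 19 Adamts and 4 Timp genes. Cells given a PMSCV-Jagged1 virus (Jagged1 cells, 2 libraries), which encodes a Notch ligand, were compared with cells infected with the PMSCV-puro virus (vector cells, 2 libraries). Both lines were thus infected PyMT-A cells in culture, and the labels give neither clones nor the promoter that drives the oncogene.

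Metalloproteases are enzymes with a zinc ion at the active site. MMPs cut collagens, other matrix proteins and growth factor precursors, and are made as inactive proforms. ADAMs are mostly membrane-anchored proteases that release the outer part of surface proteins, although several of them lack the catalytic residues. ADAMTS enzymes are secreted and act on proteoglycans, procollagens and microfibrils. TIMPs bind the active site of MMPs, and Timp3 protein also blocks several ADAM and ADAMTS enzymes. In mammary tumours much of the MMP supply is known to come from the stroma rather than the epithelium.

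Library totals lay between 13549258 and 20835208 counts in Jagged1 cells and between 12136227 and 15609720 counts in vector cells. Levels are CPM, the counts scaled to a common library size with TMM factors, and 3 counts, taken as the floor of detection, came to 0.145 to 0.244 CPM. This limit covers counting error only. The transduced gene Jag1 was read 5676 and 4493 times in Jagged1 cells, against 159 and 112 times in vector cells. The epithelial markers Epcam, Cdh1, Krt8, Krt18 and Krt7 were each read at least 6836 times in every library, while Krt19 had 1 count in the whole series. Among leucocyte genes Cd3e was at 0 and Ptprc had at most 1 count in each library, whereas Cd14 was at 172.5 and 386.2 CPM in Jagged1 cells, against 208.0 and 227.9 CPM in vector cells. Lyz2, a macrophage and granulocyte gene, had 0 and 89 counts in Jagged1 cells, against 0 and 71 in vector cells.

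The library Jagged1 2 stood apart in genes of fibroblasts. Over 9 fibroblast markers the summed level was 10.7 CPM in Jagged1 1 and 69.9 CPM in Jagged1 2, against 4.63 and 7.25 CPM in the vector libraries. Lum was at 0 throughout and Thy1 had 1 count in all. The collagen genes Col1a2 and Col3a1 had 280 and 83 reads in Jagged1 2 and none in the other 3 libraries. Markers of other cells were mixed. The basal gene Trp63 was at 7.21 and 19.7 CPM in Jagged1 cells, against 5.88 and 7.57 CPM in vector cells. The endothelial gene Cdh5 was at 0.484 and 6.07 CPM in Jagged1 cells, against 0.397 and 2.61 CPM in vector cells. The endothelial genes Pecam1, Kdr, Tek and Vwf had at most 4 counts in any library, and Pecam1 and Vwf had none in Jagged1 cells. The basal gene Krt14 was highest in Jagged1 1, at 741.4 and 356.5 CPM in Jagged1 cells, against 453.4 and 225 CPM in vector cells. The other basal genes of the list, Krt5, Krt17, Acta2 and Myh11, had at most 6 counts in any library. Libraries also differed by number. Over 8 leucocyte markers other than Cd14 the summed level was 1.79 and 11.1 CPM in Jagged1 1 and 2, against 1.72 and 10.5 CPM in vector 1 and 2. The part of these cells or transcripts in the results below was not tested, and the family medians and the main members are therefore also given within the library numbers or without Jagged1 2. In bulk RNA, fewer cells that express a gene and less RNA per cell cannot be told apart.

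Of the 73 genes, 18 were at 0 in all libraries and a further 23 were detected but too low to be tested, so that 32 passed the low-count filter: 13 Mmp, 6 Adam, 10 Adamts and 3 Timp genes. None of these 32 passed an adjusted p of 0.05 in edgeR's quasi-likelihood test, where 1 of 13299 genes (0.00752%) did, namely Jag1. DESeq2 and limma-voom also called 0 of the 32; DESeq2 called 0.353% of all genes. At an unadjusted p under 0.05 stood 7 of the 32 (Mmp24, Adam8, Adam12, Adamts7, Adamts9, Adamts10 and Adamts15), against 3.96% of all tested genes. The Jagged1 pair was wholly above the vector pair in 5 of the 32 (15.6%), where 13.9% of all tested genes did so, and below them in another 5 (15.6%, against 15.1%). With a log2 fold change of at least 0.5 as well, 5 members were higher (15.6%, against 4.66% of all genes; Adamts15, among these 5 and the 7 above, passed the filter only through its Jagged1 libraries) and 4 lower (12.5%, against 3.62%). Fitted values were positive in 19 of the 32, Adamts15 among them, against 49.5% of all genes. The median log2 fold change was 0.19, against 0.00 over all genes.

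**Figure D1:**
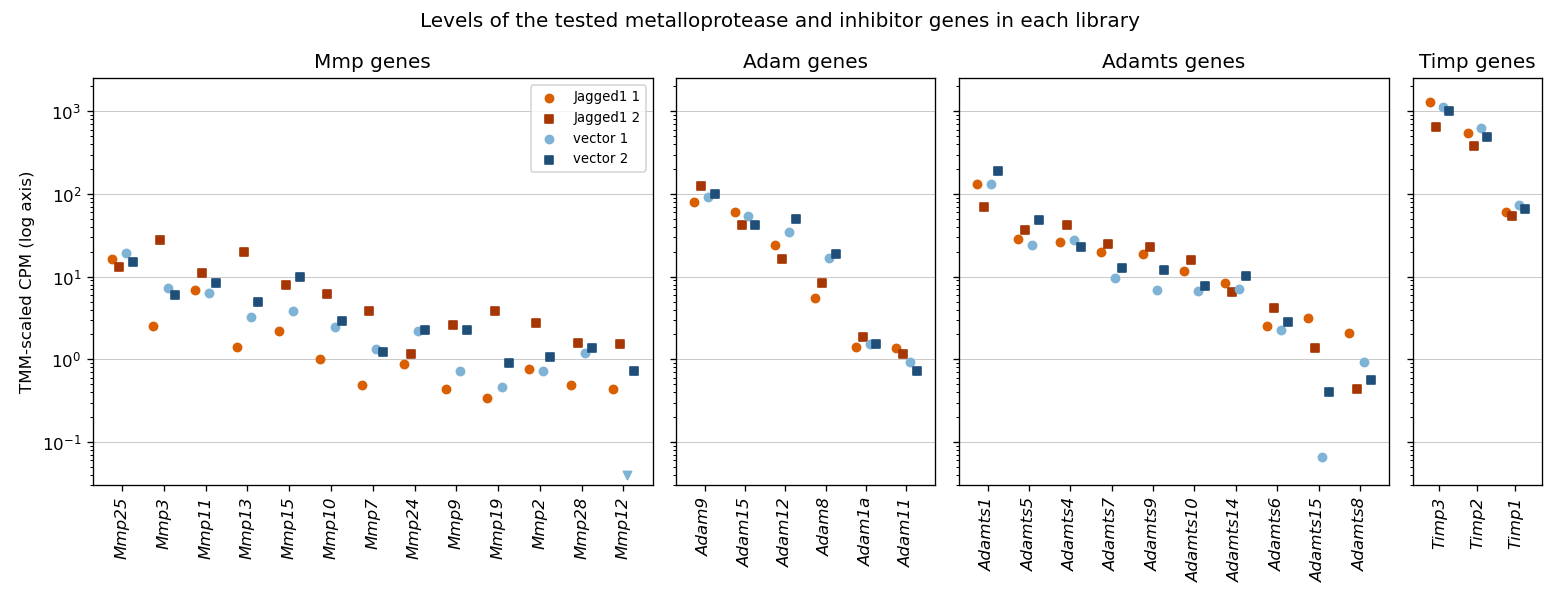
Level of each of the 32 tested genes in each library, in TMM-scaled CPM on a log axis; circles are libraries numbered 1 and squares those numbered 2, orange and brown for Jagged1 and blue for vector. The triangle marks Mmp12, which had no reads in vector 1. Timp3 and Timp2 lie highest, Timp1 lies below Adamts1 and Adam9, and in most Mmp genes Jagged1 2 lies at the top and Jagged1 1 at the bottom.

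**Figure D2:**
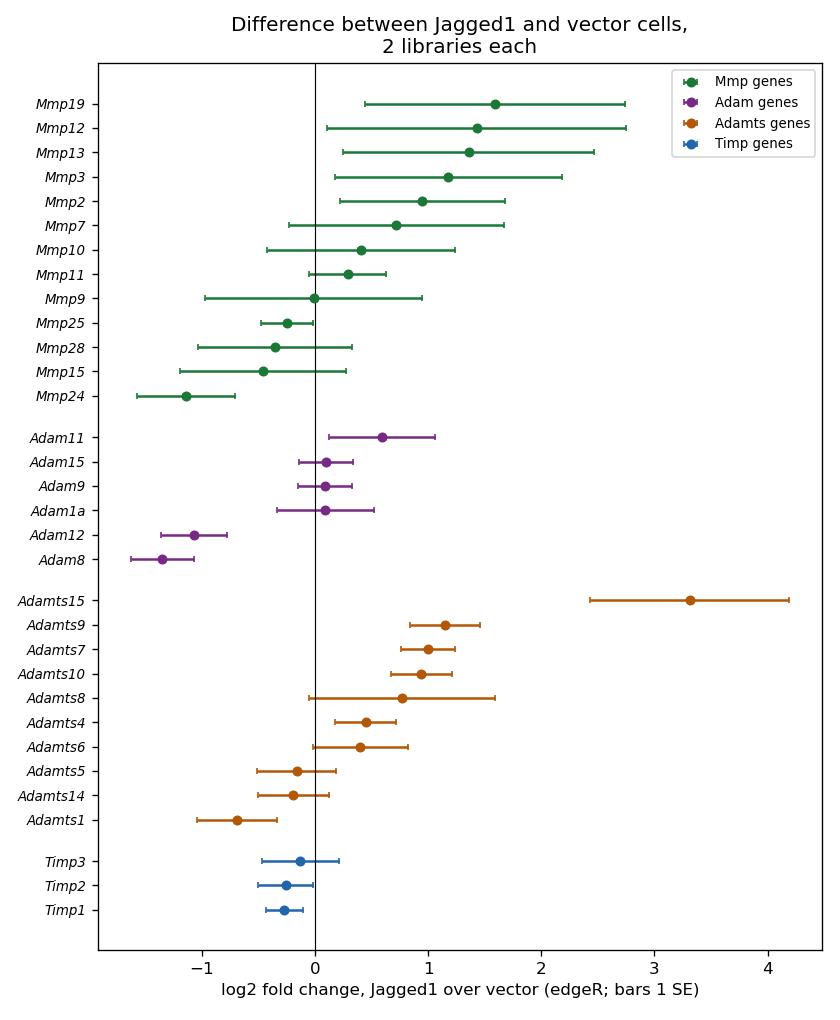
Log2 fold change of Jagged1 over vector for the 32 tested genes by family, with bars of 1 standard error from edgeR, 2 libraries per line. The Mmp genes carry wide bars, Adam8 (-1.35), Mmp24 (-1.14) and Adam12 (-1.07) lie lowest, and Adamts15 (3.31) lies highest.

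Of the 13 tested Mmp genes only Mmp24 had Jagged1 libraries that did not overlap the vector libraries. Of the 13, 8 had positive and 5 negative values, with a median log2 fold change of 0.41, and the spread within the Jagged1 line set the picture. Jagged1 2 was the highest of the 4 libraries in 10 of the 13 (76.9%), where it was highest in 29.0% of all tested genes. Jagged1 1 was the lowest in 9 of the 13 (69.2%), where it was lowest in 25.3% of all tested genes. The family median was -0.78 for Jagged1 1 minus vector 1 and 0.93 for Jagged1 2 minus vector 2. Without Jagged1 2, 12 of 13 values were negative and the median was -1.38. The summed level of the family was 34.8 and 111.9 CPM in the Jagged1 libraries, against 50.0 and 58.9 CPM in the vector libraries.

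A block of Mmp genes on chromosome 9 showed this most clearly. The 10 genes lie within 427 kb (7272514 to 7699585, GRCm38) in the order Mmp13, Mmp12, Mmp1b, Mmp3, Mmp1a, Mmp10, Mmp8, Mmp27, Mmp20 and Mmp7. AP-1, the dimer of Fos and Jun proteins, is known to act through a site close to the start of several of them. RefSeq promoters were at hand for 44 of the 73 members. Outside the block, Mmp2, Mmp9, Mmp16, Mmp17 and Mmp19 had none and were not searched. The letters TGANTCA, which read the same on both strands and are the core of an AP-1 site, were searched for in the 250 bases before each start. They stood before at least 1 start of 8 of the 10 genes of the block (80.0%), of 0 of 7 other Mmp genes with a promoter, of 2 of 13 Adam, 0 of 10 Adamts and 0 of 4 Timp genes, and of 7.82% of all 27025 genes. The 100 bases before the start are shown for the tested genes that have the match before their first start, with the match in capitals (plus strand, RefSeq, GRCm38.p6, the reference strain and not FVB/NJ). They are shown because in these genes the Jagged1 libraries lay on either side of the vector pair. Outside the block the same held for Mmp9, Mmp19 and Mmp28. The searched promoter of Mmp28 held no match, and those of Mmp9 and Mmp19 were not searched.
Mmp13 (chr9:7272414-7272513): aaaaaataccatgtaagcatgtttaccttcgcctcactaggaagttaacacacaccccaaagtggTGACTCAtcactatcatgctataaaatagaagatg
Mmp3 (chr9:7445722-7445821): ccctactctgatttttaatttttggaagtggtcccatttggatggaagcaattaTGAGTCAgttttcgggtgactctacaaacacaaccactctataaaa
Mmp10 (chr9:7502242-7502341): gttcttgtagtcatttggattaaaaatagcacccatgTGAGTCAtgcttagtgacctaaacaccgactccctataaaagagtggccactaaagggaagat
Mmp7 (chr9:7691990-7692089): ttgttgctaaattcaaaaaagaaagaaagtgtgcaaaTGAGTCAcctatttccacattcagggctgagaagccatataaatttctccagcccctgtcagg
The first base of the match lay at -35 in Mmp13, -46 in Mmp3, and -63 in both Mmp10 and Mmp7, counted from the start site. Mmp12 had the match at -44 from a second, downstream start only. Mmp1a, Mmp1b and Mmp20 also had a match, with at most 4 counts in any library. A match is a run of letters, and binding was not measured. Whether the match bears on the levels of these genes was not tested.

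Mmp3, which encodes the broad-range protease stromelysin, was at 2.52 and 28.1 CPM in Jagged1 cells, against 7.34 and 6.03 CPM in vector cells. Mmp13, a collagenase gene, was at 1.40 and 19.9 CPM in Jagged1 cells, against 3.24 and 4.97 CPM in vector cells. In both genes the Jagged1 libraries lay on either side of the vector pair. Mmp10, a close relative of Mmp3, was at 1.02 and 6.21 CPM in Jagged1 cells, against 2.45 and 2.93 CPM in vector cells (-1.39 on the log2 scale without Jagged1 2). Mmp7, the gene of matrilysin, a small protease of epithelial cells, was at 0.484 and 3.83 CPM in Jagged1 cells, against 1.32 and 1.22 CPM in vector cells (-1.38 without Jagged1 2). Mmp3 and Mmp10 are similar in sequence, and how reads were split between the 2 is uncertain. Of the exon bases of Mmp7 11.5% overlap AV064505 on the opposite strand. Mmp12, the macrophage elastase gene, had 9 and 21 counts in Jagged1 cells, against 0 and 9 in vector cells, so it followed the numbers as well as the line. The other 5 genes of the block had at most 4 counts in any library.

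The fitted log2 fold changes of these genes had errors about as large as the values, at 1.18 ± 1.00 (SE) for Mmp3 and 1.36 ± 1.11 for Mmp13, each with an adjusted p of 1 in edgeR. Without Jagged1 1 they were 2.06 and 2.28. Without Jagged1 2 they were -1.41 and -1.54. Either fit held a single Jagged1 library, so its p-values carried no spread within that line. The sign of both genes thus depended on which Jagged1 library was used.

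**Figure D3:**
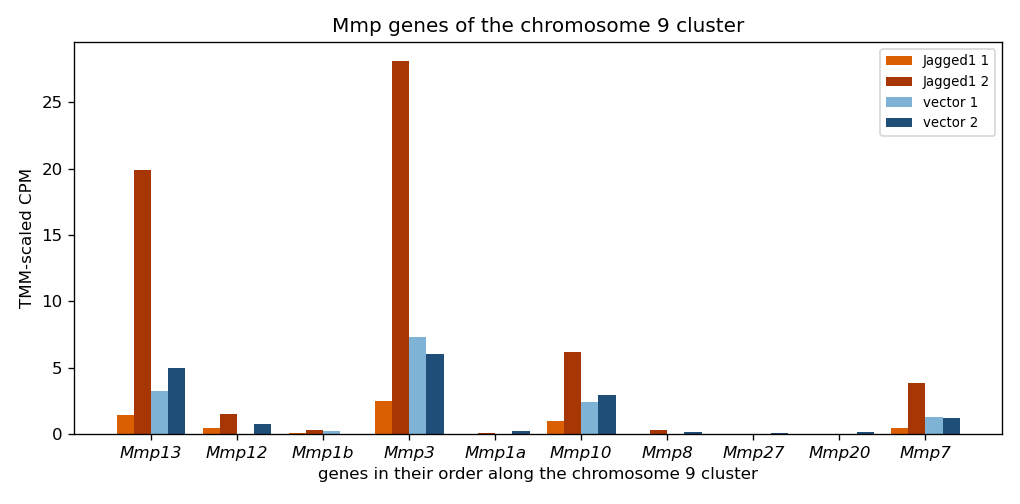
Level in TMM-scaled CPM of the 10 Mmp genes of the chromosome 9 block, in their order along the chromosome, 1 bar per library with Jagged1 left of vector. In Mmp13, Mmp3, Mmp10 and Mmp7 the Jagged1 2 bar is the tallest and the Jagged1 1 bar the shortest.

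Mmp14 and Mmp2 form a known pair in which the membrane-bound MMP14 protein activates the gelatinase MMP2 at the cell surface. Mmp14 (chromosome 14, 54431612 to 54445364, plus strand) had 2 and 90 counts in the Jagged1 libraries, against 0 and 0 in the vector libraries, and was not tested because only 1 library held enough reads. In Jagged1 2 it stood at 6.50 CPM, at least 29.4-fold higher than the mean floor of the vector libraries, 0.221 CPM (3 counts per library). In Jagged1 1 it was below the floor. Mmp2 had 16 and 38 counts in Jagged1 cells, against 11 and 13 in vector cells, and Jagged1 2 was again the highest.

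Several fibroblast markers, like Mmp14, had most of their reads in Jagged1 2. Only 8 genes of the table had at least 50 counts in 1 library and at most 3 in the other libraries together, a rule set after Mmp14 had been seen. All 8 were read in Jagged1 2, and they were Col1a2 (280 counts), Bgn (183), Col5a2 (117), Fstl1 (100), Mmp14 (90), Col3a1 (83), Cdh11 (70) and Lrg1 (67). Most of them encode fibrillar collagens and other products of mesenchymal cells. No other library had such a gene. The fibroblast gene Pdgfrb had 9 and 103 counts in Jagged1 cells and none in vector cells, while Pdgfra had 166 and 93 counts in Jagged1 cells, against 51 and 61 in vector cells. The part of these transcripts in the Mmp values was not tested.

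**Figure D4:**
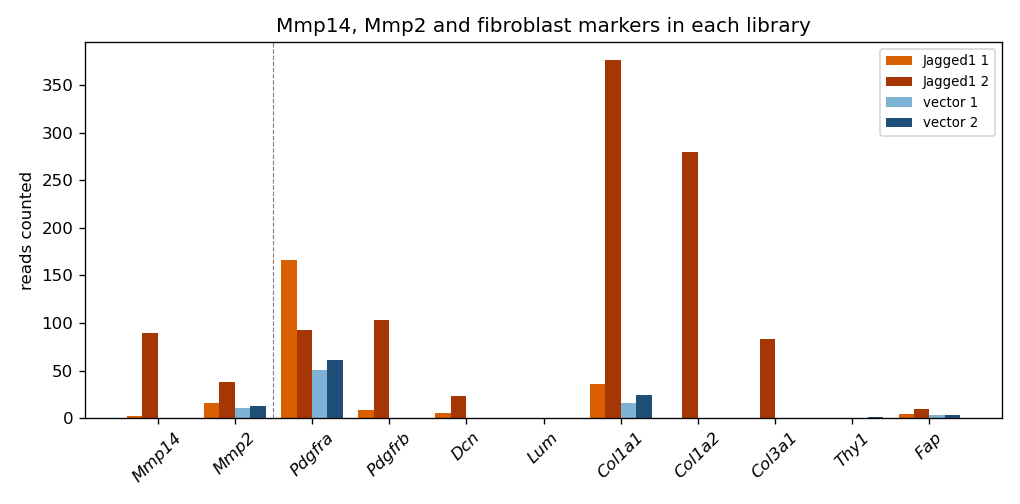
Reads counted for Mmp14, Mmp2 and, right of the dashed line, the 9 fibroblast markers, 1 bar per library with Jagged1 left of vector. Mmp14, Pdgfrb, Col1a2 and Col3a1 have their reads almost wholly in Jagged1 2. Col1a1 has most of its reads there but, like Pdgfra, is read in all 4 libraries.

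Of the remaining Mmp genes, Mmp24 was lower in either Jagged1 library than in either vector library, whereas Mmp25, Mmp11 and Mmp15 overlapped between the lines but had the same sign within both numbers. Mmp24, a membrane-type MMP gene best known from the nervous system, was at 0.871 and 1.16 CPM in Jagged1 cells, against 2.18 and 2.28 CPM in vector cells. Its log2 fold change was -1.14 ± 0.43 (SE; adjusted p = 1, edgeR) and stayed between -1.35 and -0.94 when 1 library was left out; 13.6% of its exon bases overlap BC029722 on the opposite strand. Mmp25, whose product is tied to the membrane by a lipid anchor, was at 16.2 and 13.0 CPM in Jagged1 cells, against 19.6 and 15.1 CPM in vector cells (-0.25 ± 0.23). It had the highest CPM of the family in vector cells. Mmp11 was at 6.92 and 11.0 CPM in Jagged1 cells, against 6.28 and 8.39 CPM in vector cells (0.29 ± 0.34, and -0.08 without Jagged1 2).

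The gelatinase gene Mmp9 had 9 and 36 counts in Jagged1 cells, against 11 and 28 in vector cells. Mmp15, a further membrane-type gene, was at 2.18 and 7.87 CPM in Jagged1 cells, against 3.83 and 9.85 CPM in vector cells. Without Jagged1 2 the log2 fold change was -1.75 for Mmp9, -1.64 for Mmp15 and -0.97 for Mmp19. In Mmp9 and Mmp15 the libraries numbered 2 were high and those numbered 1 low, whichever the line. Mmp19 was at 0.339 and 3.83 CPM in Jagged1 cells, against 0.463 and 0.896 CPM in vector cells, with Jagged1 2 above the rest; 22.3% of its exon bases overlap Tmem198b on the opposite strand. Mmp28 was at 0.484 and 1.59 CPM in Jagged1 cells, against 1.19 and 1.38 CPM in vector cells. Of the 9 untested Mmp genes those other than Mmp14 had at most 9 counts in any library.

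Per exon length, Mmp3 was the highest Mmp gene in Jagged1 cells, with a mean of 8.50 CPM per kilobase, against 3.71 CPM per kilobase in vector cells. In vector cells it was followed by Mmp25 at 3.28 and Mmp11 at 2.64 CPM per kilobase. Given the spread of Mmp3 within the Jagged1 line (15.3 ± 18.1 CPM, SD, n = 2), this order held only as a mean.

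Several Adam and Adamts genes had the same direction within both library numbers, as did Mmp2, Mmp11, Mmp12, Mmp15, Mmp24 and Mmp25. Adam9, Adam1a, Adamts4, Adamts5, Adamts8 and Adamts14 did not. The share of all tested genes with the same direction was not counted, so no trait of the families is read from this.

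**Figure D5:**
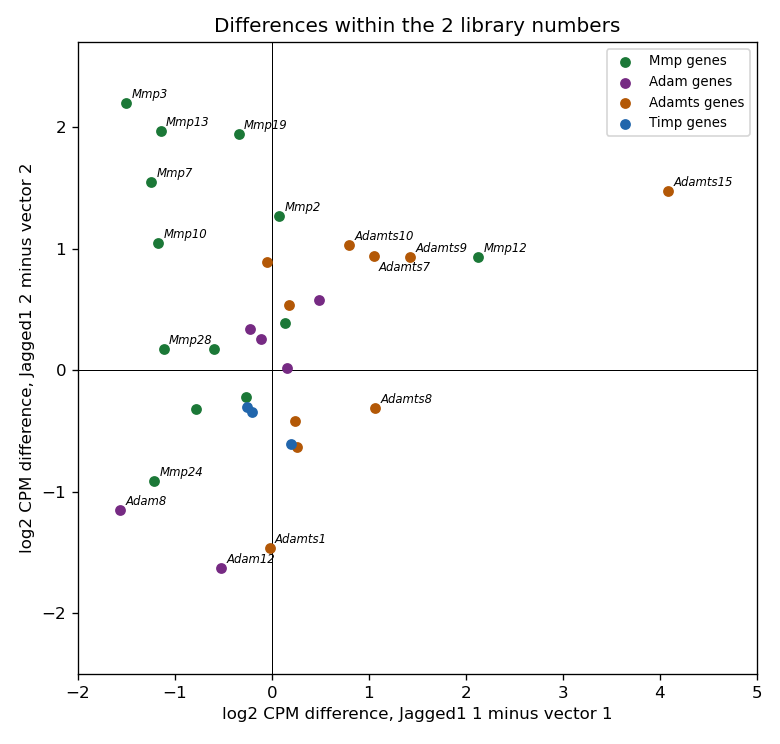
Difference in log2 CPM (prior count 2) for each of the 32 tested genes, Jagged1 1 minus vector 1 on the horizontal axis and Jagged1 2 minus vector 2 on the vertical axis, coloured by family. Adam8, Adam12 and Mmp24 lie lower left and Adamts7, Adamts9, Adamts10 and Adamts15 upper right. In these genes both Jagged1 libraries lay on one side of both vector libraries, so the same direction in both numbers had to follow. Mmp3, Mmp7, Mmp10 and Mmp13 lie upper left.

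In the Adam family Adam8 and Adam12 were lower in Jagged1 cells, and the 2 most abundant members differed little. Of 6 tested members 4 had positive and 2 negative values, with a median log2 fold change of 0.09 (-0.20 without Jagged1 2). The summed family level was 173.1 and 197.4 CPM in Jagged1 cells, against 202.0 and 214.1 CPM in vector cells. Adam8 (chromosome 7, 139978932 to 139992562, minus strand), an active sheddase first found on leucocytes, had 115 and 116 counts in Jagged1 cells, against 252 and 231 in vector cells. These were 5.57 and 8.38 CPM in Jagged1 cells, against 16.7 and 18.8 CPM in vector cells, with a gap between the groups wider than either pair's spread. Its log2 fold change was -1.35 ± 0.28 (SE; adjusted p = 0.914, edgeR). It ran from -1.67 to -1.08 when 1 library was left out and the difference in log2 CPM was -1.56 in the first pair of libraries and -1.15 in the second.

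Adam12 (chromosome 7, 133883199 to 134232146, minus strand), which encodes a sheddase linked to mesenchymal and tumour cells, was at 24.4 and 16.2 CPM in Jagged1 cells, against 35.0 and 50.4 CPM in vector cells. Both Jagged1 libraries were below both vector libraries, but the members of each pair also differed. The log2 fold change was -1.07 ± 0.29 (SE; adjusted p = 0.976, edgeR), and the difference in log2 CPM was -0.52 for the libraries numbered 1 and -1.63 for those numbered 2. Without Jagged1 2 it was -0.80, and without Jagged1 1 it was -1.39. With no low-count filter, where 5 of 55 members and 0.686% of all genes passed, Adam12 and Adam8 were among the calls (adjusted p = 0.00122 and 0.00263, edgeR).

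Adam9, a broadly expressed sheddase gene, was at 79.7 and 125.7 CPM in Jagged1 cells, against 93.0 and 99.5 CPM in vector cells (0.09 ± 0.24). Adam15, of an ADAM whose disintegrin domain binds integrins, was at 60.2 and 42.1 CPM in Jagged1 cells, against 54.1 and 41.6 CPM in vector cells (0.10 ± 0.24); 20.6% of its exon bases overlap an antisense transcript. In both genes the groups overlapped, and both signs turned when a library was left out (Adam9 to -0.27 without Jagged1 2, Adam15 to -0.19 without Jagged1 1 and -0.09 without vector 2). Adam11, which lacks the catalytic residues and is best known from neurons, was low, at 1.36 and 1.16 CPM in Jagged1 cells, against 0.926 and 0.733 CPM in vector cells (0.59 ± 0.47, and 0.70 without Jagged1 2). Adam1a, a sperm fertilin gene, was at 1.40 and 1.88 CPM in Jagged1 cells, against 1.52 and 1.55 CPM in vector cells; 63.7% of its exon bases lie in Gm42878 on the same strand, so its reads are uncertain.

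The other 22 Adam genes passed no filter. Of these 14 were at 0 in all libraries, among them Adam3, Adam18 and Adam29 of the testis, and 8 had at most 8 counts in any library. Per exon length the order in both lines was Adam9, Adam15, Adam12 and Adam8. In Jagged1 cells it ran 24.9, 8.33, 1.92 and 1.50 CPM per kilobase, against 23.4, 7.79, 4.04 and 3.82 CPM per kilobase in vector cells. The last pair did not differ beyond the spread of the libraries within a line.

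The Adamts family held 4 of the 5 members whose Jagged1 libraries lay apart above the vector libraries, the other being Adam11, and none of them passed the threshold. Of 10 tested members 7 had positive and 3 negative values, and the median log2 fold change was 0.61 (0.39 without Jagged1 2, 0.53 within number 1 and 0.71 within number 2). The Jagged1 pair lay below the vector pair in 1 of the 10, Adamts1. Over all tested genes 13.9% lay above and 15.1% below. Adamts15, whose separation the filter favoured, is counted among the 7 positive values and the 4 above. It also enters the family medians. Adamts7 (chromosome 9, 90163069 to 90208071, plus strand), of an enzyme that cuts the cartilage protein COMP, was at 20.0 and 25.0 CPM in Jagged1 cells, against 9.59 and 12.9 CPM in vector cells. Its log2 fold change was 1.00 ± 0.24 (SE; adjusted p = 0.914, edgeR). It was 0.84 without Jagged1 2 and 1.15 without Jagged1 1, and it passed without the low-count filter (adjusted p = 0.0399, edgeR).

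Adamts9 (chromosome 6, 92772699 to 92943492, minus strand), a versican-cutting enzyme gene, was at 18.8 and 22.8 CPM in Jagged1 cells, against 6.88 and 11.9 CPM in vector cells. Its log2 fold change was 1.15 ± 0.31 (SE; adjusted p = 0.986, edgeR), between 0.83 and 1.59 when 1 library was left out, and it passed without the low-count filter (adjusted p = 0.0114). Of its exon bases 9.2% overlap A730049H05Rik on the opposite strand. Adamts10 (chromosome 17, 33524204 to 33553782, plus strand), whose product acts on fibrillin microfibrils, was at 11.8 and 16.1 CPM in Jagged1 cells, against 6.68 and 7.82 CPM in vector cells (0.94 ± 0.27; adjusted p = 1, edgeR; 0.70 without Jagged1 2). In all 3 genes the Jagged1 libraries lay clear of the vector libraries, with differences in log2 CPM of 0.80 to 1.43 for number 1 and of 0.93 to 1.03 for number 2.

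Adamts15 (chromosome 9, 30899155 to 30922452, minus strand), another proteoglycan-cutting member, had 66 and 19 counts in Jagged1 cells, against 1 and 5 in vector cells. It passed the filter through its Jagged1 libraries alone, so a difference was built into its being tested. Its log2 fold change, 3.31 with an SE of 0.88 (edgeR adjusted p = 0.976), ran from 2.50 without vector 1 to 4.96 without vector 2, and it passed without the low-count filter (adjusted p = 0.00273). It was 4.09 within number 1 and 1.48 within number 2 in log2 CPM. Adamts2 and Adamts3, both genes of procollagen N-proteinases, were under the filter. Adamts2 had 5 and 7 counts in Jagged1 cells, against 1 and 0 in vector cells. Adamts3 had 7 and 6 counts in Jagged1 cells, against 2 and 1 in vector cells.

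Adamts1, the most abundant member and a gene for a versican- and aggrecan-cutting enzyme (chromosome 16, 85793827 to 85803113, minus strand), was at 130.6 and 69.1 CPM in Jagged1 cells, against 132.2 and 190.5 CPM in vector cells. Jagged1 2 was far below the other libraries and Jagged1 1 level with vector 1. The log2 fold change was -0.69 ± 0.35 (SE; adjusted p = 1, edgeR), against differences in log2 CPM of -0.02 for number 1 and -1.46 for number 2. It was -0.30 without Jagged1 2, -0.41 without vector 2, and -1.22 without Jagged1 1.

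The aggrecanase genes Adamts4 and Adamts5 did not separate the lines. Adamts4 was at 26.4 and 42.2 CPM in Jagged1 cells, against 27.4 and 22.7 CPM in vector cells (0.45 ± 0.27, and 0.07 without Jagged1 2). Adamts5 was at 28.7 and 36.5 CPM in Jagged1 cells, against 24.3 and 48.8 CPM in vector cells (-0.16 ± 0.35, with both signs among the fits that left out a library). Adamts14, the third procollagen N-proteinase gene, was at 8.42 and 6.50 CPM in Jagged1 cells, against 7.01 and 10.1 CPM in vector cells. Adamts6 and Adamts8 stood at 4.19 CPM or less, with overlapping groups, and Adamts8 was at -0.79 without Jagged1 1 against 0.77 in the full fit. The 9 untested Adamts genes included 3 at 0 in all libraries. Per exon length Adamts1 led in both lines, at 18.8 CPM per kilobase in Jagged1 cells and 30.4 CPM per kilobase in vector cells. Adamts4 came next, at 7.13 and 5.21 CPM per kilobase in Jagged1 and vector cells. Adamts7 followed in Jagged1 cells (3.58 CPM per kilobase, and 1.79 in vector cells) and Adamts5 in vector cells (3.38 CPM per kilobase, and 3.02 in Jagged1 cells).

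Per exon length the 3 detected inhibitor genes were the most abundant members, and their fitted values were slightly negative in Jagged1 against vector cells. The 3 detected Timp genes together made 1901.1 and 1085.9 CPM in Jagged1 cells, against 1829.1 and 1544.1 CPM in vector cells. Their levels had means of 119.7 CPM per kilobase for Timp3, 118.4 for Timp2 and 64.7 for Timp1 in Jagged1 cells. The vector means were 130.7, 141.8 and 78.2 CPM per kilobase in that order. Timp2 and Timp3 did not differ from each other beyond the spread of their libraries.

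Timp3, which encodes the matrix-bound inhibitor (chromosome 10, 86300372 to 86349506, plus strand), was at 1298.3 and 651.3 CPM in Jagged1 cells, against 1133.7 and 995.5 CPM in vector cells. Its 2 Jagged1 libraries were the highest and the lowest of the 4, and the log2 fold change was -0.13 ± 0.34 (SE), 0.29 without Jagged1 2 and -0.71 without Jagged1 1. Of its exon bases 21.3% overlap Syn3 on the opposite strand. Timp2 (chromosome 11, 118301069 to 118355740, minus strand), whose product also takes part in the activation of MMP2, was at 541.6 and 380.8 CPM in Jagged1 cells, against 622.7 and 482.5 CPM in vector cells (-0.26 ± 0.24). It was lower within both numbers (-0.20 and -0.34) but overlapped across them, and was at -0.03 without Jagged1 2 and -0.04 without vector 1.

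Timp1, the inducible secreted inhibitor gene (chromosome X, 20870166 to 20874735, plus strand), was at 61.2 and 53.8 CPM in Jagged1 cells, against 72.7 and 66.1 CPM in vector cells. Both Jagged1 libraries were below both vector libraries, by a small amount that was alike within the numbers (-0.25 and -0.30). The log2 fold change was -0.27 ± 0.16 (SE; adjusted p = 1, edgeR) and lay between -0.37 and -0.18 when 1 library was left out. Timp4 was at 0 in all 4 libraries.

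Genes that act with the metalloproteases gave 0 calls in edgeR, DESeq2 and limma-voom. For the counts below, 49.5% of all tested genes had positive values and 3.96% an unadjusted p under 0.05 (edgeR). Of 19 activators, anchors and other inhibitors 13 were tested, with 6 positive and 7 negative values and a median log2 fold change of -0.01 (0.03 without Jagged1 2). Jagged1 2 was the highest library in 5 of the 13 and the lowest in 5. Lrp1 (1.35 ± 0.65, SE) and Lcn2 (0.37 ± 0.65) were highest in Jagged1 2 and stood at 0.03 and -1.01 without it. Plau, the urokinase gene, stood at -0.67 ± 0.27 (SE) and its receptor gene Plaur at -0.71 ± 0.21, the 1 gene of the list at an unadjusted p under 0.05; both had their Jagged1 libraries below their vector libraries, and they stood at -0.37 and -0.48 without Jagged1 2. Furin, which encodes a protease that removes the propeptide of membrane-type MMPs and ADAMs, stood at -0.01 ± 0.16, and the membrane-anchored MMP inhibitor gene Reck at -0.02 ± 0.34. Among 7 tested relatives, the ADAMTS-like gene Papln stood at 0.94 ± 0.30 and the procollagen C-proteinase gene Bmp1 at 0.40 ± 0.16, both with separate groups and both at an unadjusted p under 0.05. Without Jagged1 2 they stood at 0.70 and 0.40. Of 4 tested ADAMTS substrates none was at an unadjusted p under 0.05, with the versican gene Vcan at -0.07 ± 0.15.

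Of 13 transcription factor genes of the AP-1, Ets and Runx families 12 had negative values and 1 positive, where 49.5% of all tested genes were positive. Their median was -0.18 (9 negative, 4 positive and -0.26 without Jagged1 2). Jagged1 2 was the highest library in 0 of the 13, against 29.0% of all tested genes. It was the lowest in 8 of the 13 (61.5%, against 30.5% of all tested genes). The Jagged1 pair lay below the vector pair in 6 of the 13 (46.2%, against 15.1%). At an unadjusted p under 0.05 (edgeR) stood 2 of the 13, against 3.96% of all tested genes. These were Fosl1 at -1.03 ± 0.25 (SE) and Jund at -0.50 ± 0.16, with -0.75 and -0.59 without Jagged1 2. Fosl1 had 393 and 169 counts in Jagged1 cells, against 475 and 399 in vector cells. Fosl2 was at 125.1 and 177.1 CPM in Jagged1 cells, against 215.6 and 187.0 CPM in vector cells, and Fos at 13.4 and 15.4 CPM in Jagged1 cells, against 15.5 and 13.7 CPM in vector cells. Fosb stood at -0.54 ± 0.37, with its Jagged1 libraries below its vector libraries.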

How the data were processed

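Per the submitters' processing notes the reads were handled with STAR 2.6.0c and featureCounts 1.6.2 and the mm10 (GRCm38) genome; what was deposited are unnormalized counts of reads for each gene symbol and library. Annotation release and strand setting: not given in the sources used here. Reads of overlapping genes may thus be shared. Poly(A) RNA was used, per the labels' protocols.

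Libraries were grouped by the virus named in the labels. Genes were filtered with filterByExpr (minimum count 10), scaled with TMM factors and tested over the whole table with edgeR 4.0.16 (glmQLFit, robust and legacy, R 4.3.3), with Benjamini-Hochberg adjustment over 13299 genes and a threshold of 0.05. The SE is the absolute log2 fold change over the root of F. DESeq2 1.42.0 and limma-voom (limma 3.58.1) were alternatives; the code was tested on simulated data. Nothing says that the 2 libraries of a line were separate cultures, so the p-values reflect the spread of these samples alone, and that spread could be technical. An exact permutation test of 2 against 2 cannot go below p = 0.333 and was not run. Exon lengths and coordinates are from GENCODE M21, promoters from RefSeq (GRCm38.p6). Members and gene lists were chosen with earlier results of these data known. Named in full were the Timp genes, the 4 highest genes per family by length-scaled level, genes past the threshold in any fit, and genes whose Jagged1 and vector libraries did not overlap, with a log2 fold change of at least 0.5; other genes were added after their values were seen. Protein sequences were not used here.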

Additional observations from a re-analysis of the deposited data

How the results depend on the processing

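With 2 libraries per line, calls depended on single libraries. A fit that left out 1 library kept a single library of that line, so its calls carry no spread within the line. All tested genes past the threshold numbered 1 in edgeR, 17 with the replicate number as a block (0 members), 47 with DESeq2 and 169 without the low-count filter, and between 0 and 193 when 1 library was left out. The library numbers are those of the sample titles, while the sample descriptions give each library a number of its own. The labels do not say what same-numbered libraries share. Their deviations from the line means correlated at 0.425 over 13299 genes, which are not independent, and at 0.265 over the 32 tested members. Members past the threshold numbered 0 in edgeR, 5 without the filter, and 0 to 6 when 1 library was left out; Mmp14 was among the 6 without Jagged1 1; it was also tested without vector 1 and without vector 2 (adjusted p = 1 and 0.998). Family medians ran over the fits that left out a library from -1.38 to 1.39 for Mmp, -0.20 to 0.08 for Adam, 0.39 to 0.73 for Adamts and -0.54 to -0.03 for Timp. With limma-voom the Mmp median was -0.09 against 0.41 in edgeR, with Mmp3 at 0.09 and Mmp13 at 0.17. The Adam median was -0.47 with a minimum mean of 5 CPM (4 genes) and -0.16 within number 1, an alternative added after the data were seen. The Adamts median was 0.44 with limma-voom, 0.85 without the filter (16 genes) and 0.47 with a minimum mean of 5 CPM (7 genes). Of 197 alternative values for 20 named genes 178 kept direction and side, 10 passed the threshold and 9 changed sign. All 9 came from leaving out 1 library, where values ran from -0.27 to 0.38 for Adam9, -0.08 to 0.59 for Mmp11, -1.41 to 2.06 for Mmp3, -1.54 to 2.28 for Mmp13 and -0.71 to 0.29 for Timp3 (each turned without Jagged1 2), and from -0.19 to 0.33 for Adam15 and -0.56 to 0.42 for Adamts5 (each turned without Jagged1 1 and without vector 2); the cause was not tested. Genes under about 3 counts per library could not be ordered at this depth.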
